A study of Oncorhynchus mykiss with 38 samples.

Results

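Hormone-sensitive lipase was found on the trout array as 3 cDNA clones of 2 genes, under the symbols of the array description, which gives 1 symbol to 677 and none to 8346 of the 9024 clones with values. Clones tcbk0057.o.14 (lipe1) and tcbk0035.g.06 (lipea) were chosen by name, with their signals in these same arrays already known, and clone tcbk0025.o.05 was added because the array description also assigns it to lipe1. All 3 clones had their highest group mean in whole testes at stage V, the stage with post-meiotic spermatids, and their second highest in isolated spermatids. Their lowest mean was at stage I, when the only germ cells are slowly dividing type A spermatogonia. From stage I to stage V the signal was 3.21-fold higher for the first lipe1 clone (tcbk0057.o.14), 2.51-fold for the second lipe1 clone (tcbk0025.o.05) and 3.17-fold for lipea. At stage I the first lipe1 clone and lipea were under the array median, which the study takes as the limit of background, on all 5 arrays, so these folds are against a background level. With signals under the median raised to it the log2 differences were 0.81, 1.02 and 0.395 in place of 1.68, 1.33 and 1.67. In the spawning testis (stage VIII) all 3 means were lower than at stage V, and lipea was above the array median on 0 of 3 arrays. Since the clones were picked with these values in view, their levels and differences are given as a description and carry no p-value.

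Hormone-sensitive lipase hydrolyses diacylglycerol and cholesteryl esters held in lipid droplets. In adipocytes it is phosphorylated by protein kinase A and releases fatty acids, while in steroid-producing tissue it frees cholesterol for steroid synthesis. Male mice that lack Lipe, the gene for this enzyme, are sterile and make few or no sperm. Trout carry more than 1 gene for it, and lipea is also known as lipe2. In the RefSeq gene table all 3 clones were found under the same symbols through their Entrez numbers. Which parts of the transcripts the clones cover was not known here, so how far lipe1 RNA hybridised to the lipea clone, or the reverse, was not tested.

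The data comprised 38 nylon arrays, each hybridised with radiolabelled cDNA from 1 sample of male rainbow trout (Oncorhynchus mykiss) from an experimental fish farm, with no treatment stated. Whole testes were taken at stage I (n = 5), at stages IIa (n = 4) and IIb (n = 4) with dividing type B spermatogonia, at stage IIIb (n = 3) with meiotic spermatocytes, at stage V (n = 4) with spermatids and at stage VIII (n = 3) with essentially mature sperm. Germ cell fractions enriched in spermatogonia (n = 6), spermatocytes (n = 6) or spermatids (n = 3) came from pooled testes, the spermatogonia from immature and the spermatocytes from maturing fish. They were enriched and not pure, and they alone went through enzyme digestion, overnight shaking and elutriation, so a difference between a fraction and a whole testis cannot be told apart from an effect of the isolation. Neither the strain nor the age of the fish is stated in the sources used here, and nothing says that the arrays of a whole-testis group came from different animals, so the spread between arrays may be partly technical.

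Values were log2 signals, quantile normalized by the authors, so that every array had the same median of 8.166 and a change is relative to all clones of the array. The study treats signals under the array median as background. No 2 arrays correlated at more than 0.9781, and spermatid replicate 2 had the lowest mean correlation with its group, 0.8191. The group labels were checked against marker clones. Over 6 clones of meiotic and spermatid genes (sycp3, txndc6, spata4, cetn4 and 2 clones of ift122) the mean log2 signal lay between 7.61 and 8.73 on every array of early (I, IIa, IIb) or spawning (VIII) testes and of spermatogonia, between 9.27 and 9.32 at stage IIIb, between 9.93 and 10.27 at stage V and between 9.33 and 10.15 in spermatocytes. In spermatids this mean was 10.18, 8.78 and 10.21 for replicates 1, 2 and 3, so that replicate 2 lay near the spermatogonia. The peritubular and matrix markers had group means of 8.70 to 9.43 in the fractions and of 10.63 to 11.87 in whole testes. The red blood cell markers had a mean of 10.28 in spermatogonia, within the 9.42 to 12.38 of whole testes. In spermatocytes and spermatids they had 8.53 and 7.88.

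The first lipe1 clone had log2 signals of 6.67, 7.54, 7.75, 6.90 and 7.61 at stage I. At stage IIa they were 7.32, 7.90, 7.71 and 7.67, and at stage IIb 7.10, 7.66, 7.19 and 7.54. These 13 arrays of early testes all lay under the array median. At stage IIIb the clone had 8.43, 7.74 and 8.11, with 1 array above the median. Signals of 8.57, 9.37, 8.84 and 9.12 were measured at stage V, all above the median and above every other whole-testis array except replicate 1 of stage VIII. Stage VIII gave 8.85, 7.70 and 7.29, and replicate 1 there was within the range of stage V while replicates 2 and 3 were near the early stages.

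In the fractions the first lipe1 clone ranged from 7.88 to 8.52 in spermatogonia, with a median of 8.07. Spermatocytes ranged from 7.59 to 9.82 with a median of 8.56, and the highest signal of this clone on any array was in spermatocyte replicate 6. The 3 spermatid arrays had 9.40, 8.41 and 7.90. Spermatogonia did not overlap with stage I, as for 9.04% of all clones in this direction, and all stage I arrays lay under the array median. The 3 fractions overlapped with each other. The clone was above the array median on 14 of 38 arrays, including 2 of 6 spermatogonia, 4 of 6 spermatocyte and 2 of 3 spermatid arrays.

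The second lipe1 clone had a range of group means of 1.33, against 1.68 for the first, of which part in both lies under the array median. Its log2 signals were 7.32, 8.10, 7.97, 7.73 and 8.38 at stage I, 7.70, 7.90, 8.20 and 8.04 at stage IIa, and 8.06, 8.03, 7.71 and 7.995 at stage IIb. Stage IIIb had 8.64, 8.14 and 8.39. Most arrays of the early stages lay under the array median and stage IIIb reached just above it. At stage V the signals were 9.03, 9.49, 9.04 and 9.33, above all other whole-testis arrays, and at stage VIII they were 8.84, 8.12 and 8.07. Of all clones 16.1% had every stage V array above stage I, and 25.3% had every stage V array above stage VIII. Again replicate 1 was the high array of stage VIII. In spermatogonia the clone ranged from 7.98 to 8.64 (median 8.20), and in spermatocytes from 7.97 to 10.11 (median 8.83). Spermatids had 9.73, 8.51 and 9.23. This clone was above the array median on 20 of 38 arrays, among them all 4 of stage V, 5 of 6 spermatocyte arrays and all 3 spermatid arrays.

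For lipea the log2 signals at stage I were 6.82, 7.11, 6.80, 6.87 and 6.89. At stage IIa they were 7.50, 7.08, 6.61 and 6.99, and at stage IIb 7.63, 7.15, 6.80 and 6.70. All of these lay well under the array median, as did the 7.75, 7.02 and 7.60 of stage IIIb. At stage V lipea had 8.80, 8.94, 8.27 and 8.24, the only whole-testis arrays above the median. Stage VIII gave 8.13, 6.79 and 7.30, with replicate 1 again the highest of its group and just under the median. Spermatogonia ranged from 6.64 to 7.48 (median 6.94) and spermatocytes from 6.88 to 7.90 (median 7.47), and none of these 12 arrays was above the array median. The spermatid arrays had 8.26, 7.64 and 9.15. Spermatid replicate 3 was the highest lipea array of all and spermatid replicate 2 the lowest of its group. Only 6 of 38 arrays were above the median for lipea, 4 of stage V and 2 of spermatids, so its order among the other groups rests on signals at the level of background.

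**Figure D1:**
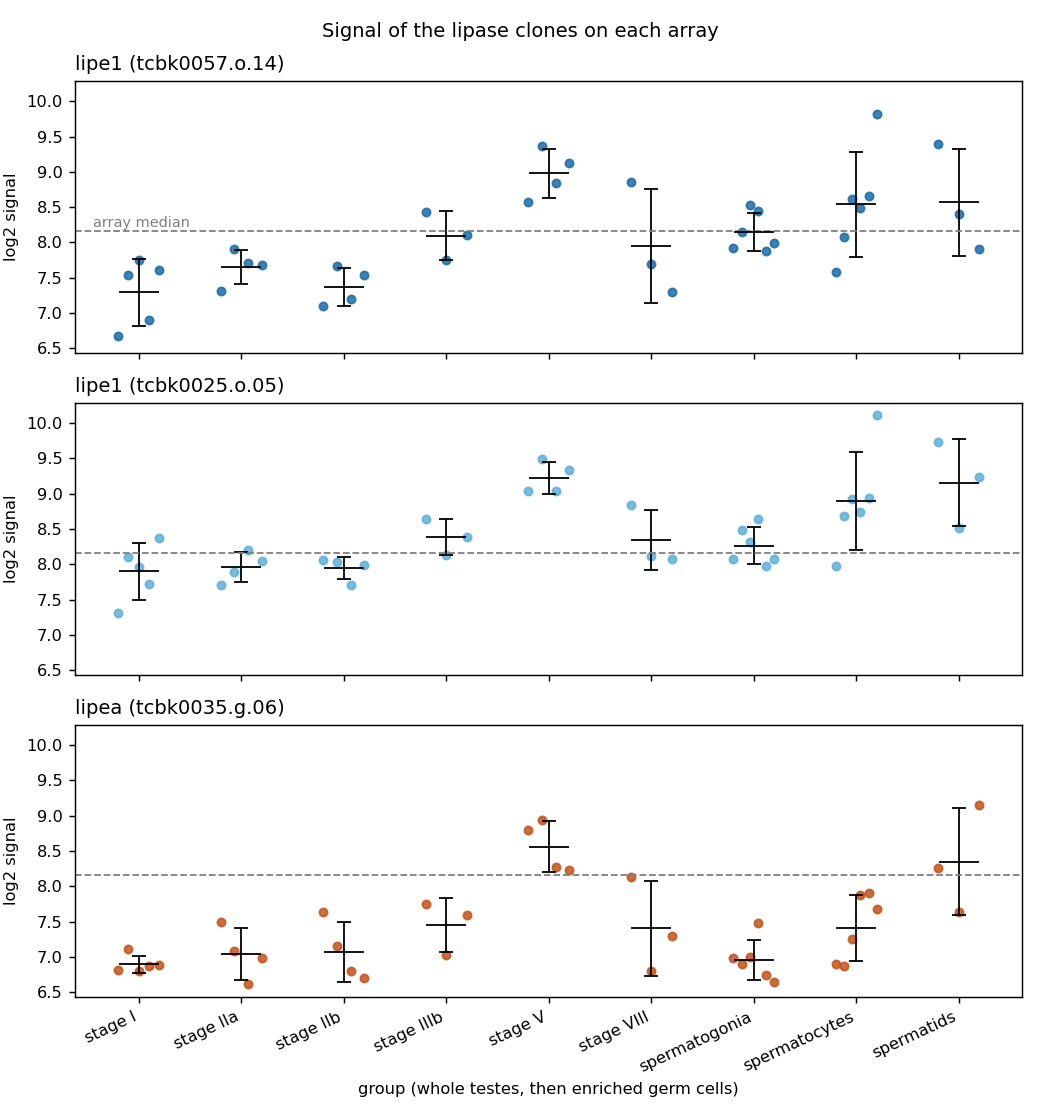
Log2 signal (vertical axis) of the 3 lipase clones on each of the 38 arrays, by group (horizontal axis). Points are arrays in replicate order, black bars the group mean with its SD, and the dashed line the array median of 8.166. The 4 arrays of stage V lie above the line for all 3 clones, and replicate 1 of stage VIII is the highest of its group.

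The order of the 9 group means was first stage V and then spermatids for every clone, and stage I was last. For the first lipe1 clone the means were 8.98 ± 0.35 (SD, n = 4) at stage V, 8.57 ± 0.76 (n = 3) in spermatids, 8.54 ± 0.75 (n = 6) in spermatocytes, 8.15 ± 0.27 (n = 6) in spermatogonia, 8.10 ± 0.34 (n = 3) at stage IIIb, 7.95 ± 0.81 (n = 3) at stage VIII, 7.65 ± 0.25 (n = 4) at stage IIa, 7.37 ± 0.27 (n = 4) at stage IIb and 7.29 ± 0.48 (n = 5) at stage I. Of the 8 pairs of neighbours in this order only stages IIa and IIb differed by more than their pooled SD, by 0.28 against 0.26, and their arrays still overlapped. For the second lipe1 clone stage V (9.23 ± 0.23) and spermatids (9.16 ± 0.61) were followed by spermatocytes (8.90 ± 0.69), stage IIIb (8.39 ± 0.25) and stage VIII (8.35 ± 0.43). Spermatogonia (8.26 ± 0.26) came next, and their difference from stage IIa (7.96 ± 0.21) was the only one between neighbours to exceed the pooled SD, 0.30 against 0.25. Stages IIb (7.95 ± 0.16) and I (7.90 ± 0.40) came last.

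For lipea the order was stage V (8.56 ± 0.36), spermatids (8.35 ± 0.76), stage IIIb (7.46 ± 0.38), spermatocytes (7.42 ± 0.47), stage VIII (7.41 ± 0.67), stage IIb (7.07 ± 0.42), stage IIa (7.05 ± 0.37), spermatogonia (6.96 ± 0.29) and stage I (6.90 ± 0.12). The step from spermatids down to stage IIIb, 0.89 on the log2 scale, was the only one larger than the pooled SD of its neighbours, 0.60. Spermatogonia had different places in these orders, rank 4 for the first lipe1 clone, rank 6 for the second and rank 8 for lipea.

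Across the reproductive cycle the question was how the lipases changed from an immature to a meiotic and post-meiotic testis. Between stage I and stage V the log2 signal was higher by 1.68 (SE 0.32) for the first lipe1 clone, by 1.33 (SE 0.26) for the second and by 1.67 (SE 0.27) for lipea. The 4 arrays of stage V lay above the 5 of stage I for all 3 clones, as they did for 16.1% of all clones. Stage I was above the array median on 0, 1 and 0 of 5 arrays, and with signals under the median raised to it the differences were 0.81, 1.02 and 0.395. In bulk tissue more cells of a type and more RNA per cell cannot be told apart, and this holds for every difference here between whole testes. The mean of the meiotic and spermatid markers was 1.85 higher at stage V than at stage I, and those of Leydig and Sertoli cell markers were lower, with differences of -1.20 and -1.14. Their part in the lipase differences was not tested.

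The change was also taken from stage IIb to stage IIIb and from stage IIIb to stage V. From stage IIb to stage IIIb the differences were 0.72 (SE 0.36), 0.44 (SE 0.30) and 0.39 (SE 0.30) for the first lipe1 clone, the second and lipea. The arrays of both lipe1 clones did not overlap in this comparison, as for 11.8% of all clones, and those of lipea did. With low signals raised to the median these differences were 0.089, 0.235 and 0. From stage IIIb to stage V the differences were 0.88 (SE 0.36), 0.83 (SE 0.30) and 1.11 (SE 0.30), and no clone of the 3 had overlapping arrays, against 7.47% of all clones that did not overlap in this direction. With low signals raised to the median this step gave 0.721, 0.824 and 0.395, and lipea was above the median on 0 of 3 arrays of stage IIIb. With limma 0 of 9024 clones passed an adjusted p of 0.05 between these stages. An unadjusted p under 0.05 was found for 478, about the share that chance alone would give.

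At the end of the cycle the comparison was between the spawning testis and stage V. The log2 difference, stage VIII minus stage V, was -1.03 (SE 0.36) for the first lipe1 clone, -0.88 (SE 0.30) for the second and -1.15 (SE 0.30) for lipea. For lipea 0 of 3 stage VIII arrays were above the array median, so its fall ends at a background level. With low signals raised to the median the difference was -0.833 for the second lipe1 clone and -0.395 for lipea. The second lipe1 clone and lipea did not overlap between the 2 stages, as for 25.3% of all clones in this direction, and the first lipe1 clone did overlap, through replicate 1 of stage VIII. Without this array the differences were -1.48, -1.13 and -1.51. Against stage I the means of stage VIII were higher by 0.66 (SE 0.34), 0.45 (SE 0.28) and 0.51 (SE 0.29), with overlapping arrays for all 3 clones. These differences rested on the same array, without which they were 0.20, 0.20 and 0.15. Stage VIII was above the array median on 1, 1 and 0 of 3 arrays, and stage I on 0, 1 and 0 of 5. With low signals raised to the median the second lipe1 clone gave 0.183 and lipea 0, so the lipea difference lies within background. On replicate 1 of stage VIII the mean of the meiotic and spermatid markers was 8.73, against 7.69 and 7.61 on replicates 2 and 3, that of the Leydig cell markers was 9.93, against 10.26 and 10.43, and that of the peritubular and matrix markers was 11.41, against 11.85 and 11.74. The red blood cell markers lay between 12.34 and 12.41 on the 3 arrays. Whether the markers and the lipases were high on that array for the same reason was not tested.

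**Figure D2:**
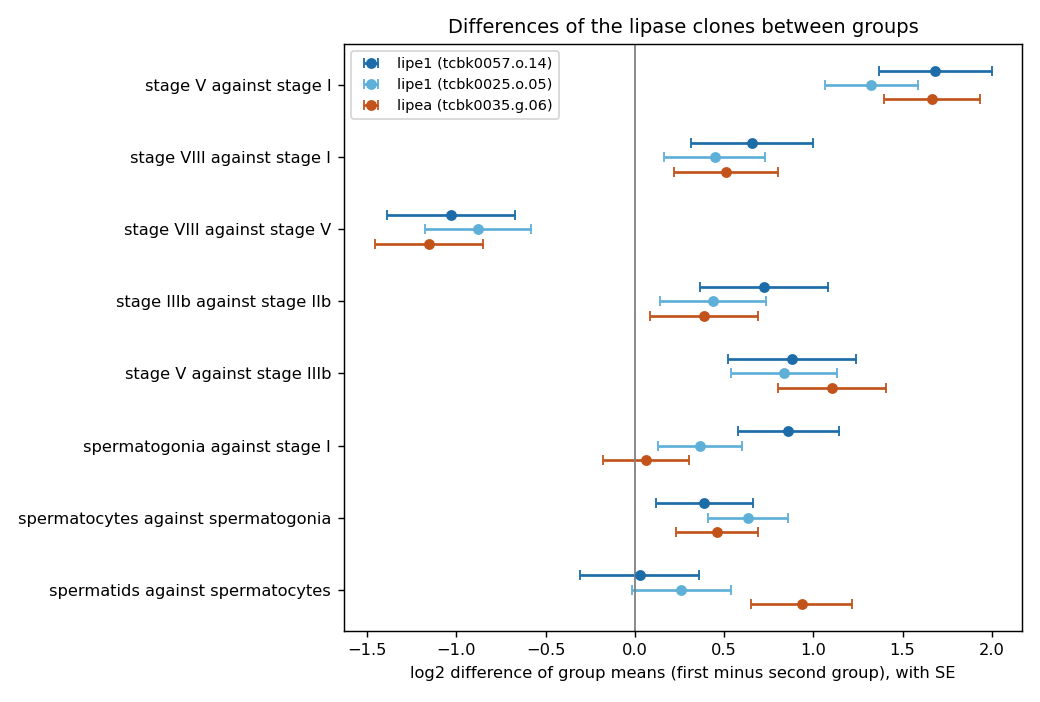
Log2 difference of group means (horizontal axis, first group minus second, with its SE) for the 3 lipase clones in 8 comparisons (vertical axis). All 3 clones lie right of 0 for stage V against stage I and left of 0 for stage VIII against stage V. Spermatogonia against stage I (0.86, 0.37 and 0.06) and spermatids against spermatocytes (0.03, 0.26 and 0.93) rest partly on signals under the array median, and with these raised to it gave 0.105, 0.115 and 0, and 0.004, 0.229 and 0.358.

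The germ cell fractions were compared with stage I and with each other. Spermatogonia were 0.86 (SE 0.28) above stage I for the first lipe1 clone, without overlap, as for 9.04% of all clones. In the second lipe1 clone the difference was 0.37 (SE 0.24) and in lipea 0.06 (SE 0.24), both with overlap. The first lipe1 clone was above the array median on 0 of 5 stage I and 2 of 6 spermatogonia arrays, and with low signals raised to the median the differences were 0.105, 0.115 and 0. From spermatogonia to spermatocytes the differences were 0.39 (SE 0.27), 0.63 (SE 0.23) and 0.46 (SE 0.23), again with overlap for all 3, and 0.381, 0.606 and 0 with low signals raised. Spermatocyte replicate 6 held much of this for the lipe1 clones, since without it the values were 0.13 and 0.39, against 0.41 for lipea. On that array the meiotic and spermatid markers had the highest mean of their group, 10.15.

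Spermatids and spermatocytes differed by 0.03 (SE 0.33) for the first lipe1 clone and 0.26 (SE 0.28) for the second. For lipea the difference was 0.93 (SE 0.28), but lipea was above the array median on 0 of 6 spermatocyte arrays, and with low signals raised to the median the difference was 0.358. The arrays of all 3 clones overlapped. Each spermatid array weighed on these values: leaving out replicates 1, 2 or 3 gave -0.39, 0.11 and 0.36 for the first lipe1 clone, -0.03, 0.59 and 0.23 for the second, and 0.98, 1.29 and 0.54 for lipea. Replicate 3 was the highest spermatid array for lipea and the lowest for the first lipe1 clone, and replicate 2, with the low marker mean of 8.78, was the lowest for lipea and the second lipe1 clone. Over all clones 6 passed an adjusted p of 0.05 between these fractions (0.0665%). The differences between the genes in these changes were not tested, and the comparisons with stages I and V and with spermatogonia share arrays.

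The 2 lipe1 clones followed each other closely. Over the 38 arrays their signals correlated with r = 0.91, and after the group mean was taken from each array the deviations still correlated with r = 0.85. Between lipea and the first and second lipe1 clones r was 0.61 and 0.74 over the arrays, and 0.29 and 0.46 over the deviations. Since lipea was above the array median on only 6 of 38 arrays, these values rest mostly on lipea signals at the level of background. With the 6 means of whole testes alone, r was 0.98 between the lipe1 clones and 0.977 and 0.995 between each of them and lipea, while with all 9 means it was 0.95, 0.83 and 0.91. Among whole testes only stage V had lipea arrays above the array median, so the whole-testis r with lipea rests largely on that stage. These values are descriptive, since the clones share RNA samples, labelling reactions and membranes.

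**Figure D3:**
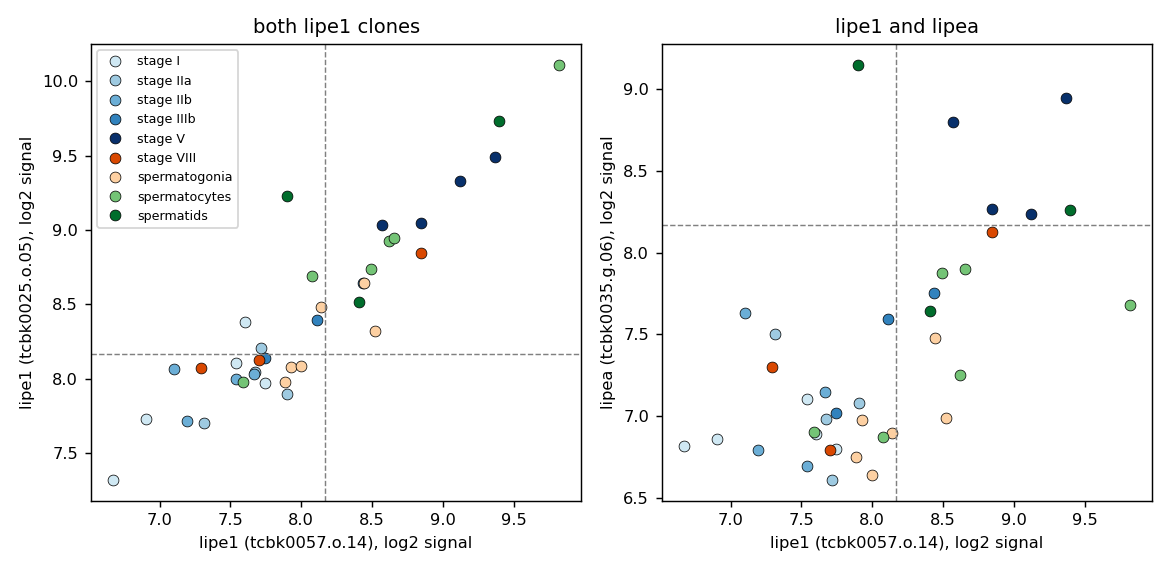
Log2 signals of the second lipe1 clone (left, vertical axis) and of lipea (right, vertical axis) against those of the first lipe1 clone (horizontal axis), with 1 point per array coloured by group and dashed lines at the array median. The lipe1 clones lie along a line (r = 0.91), while lipea stays under the array median in most arrays in which lipe1 is above it. On 1 spermatid array (replicate 3) lipea is high and the first lipe1 clone low, and there the second lipe1 clone is high too (9.23).

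**Figure D4:**
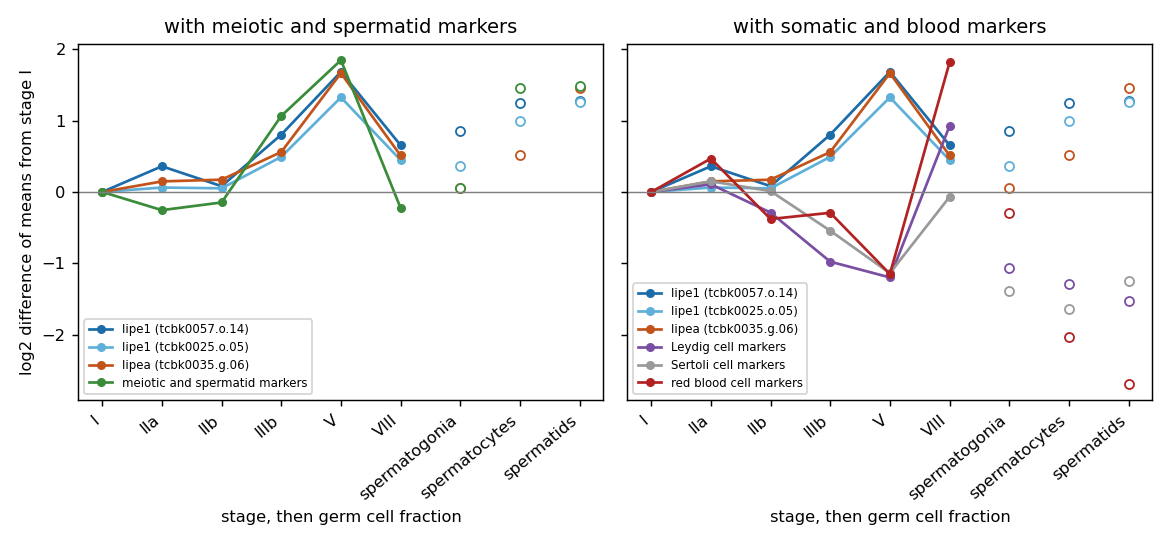
Log2 difference of each group mean from stage I (vertical axis) for the lipase clones, with the mean of the meiotic and spermatid markers (left) and of Leydig cell, Sertoli cell and red blood cell markers (right). Filled points joined by lines are whole testes and open points the enriched germ cells; the lipases and the meiotic list peak at stage V (1.33 to 1.68 and 1.85), where the Leydig list is at its lowest among whole testes (-1.20).

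The marker lists moved with the lipases as follows. At stage VIII the meiotic and spermatid list differed from stage I by -0.22, and the 3 lipase means by 0.66, 0.45 and 0.51. For lipea all arrays of stages I and VIII lay under the array median, so its 0.51 is a difference within background. Without replicate 1 of stage VIII the lipase differences were 0.20, 0.20 and 0.15. That array was the highest of its group for the list too, and the -0.22 of the list includes it. On replicates 2 and 3 the list mean was 7.69 and 7.61, against 8.23 at stage I, so the list lay further under stage I without that array. In spermatogonia the list was 0.06 above stage I, and the lipase clones were 0.86, 0.365 and 0.06 above. All arrays of lipea in both groups lay under the array median, as did all stage I arrays of the first lipe1 clone. The value of lipea is thus a difference within background, and that of the first lipe1 clone is against a background level. The Leydig list (8 clones: star, cyp17a1, hsd3b1, cyp11b, hsd11b2, lhcgr, igfbp7 and ghr2) had means of 9.28 at stage I, 8.08 at stage V and 10.21 at stage VIII, the reverse of the lipases at each step. Red blood cell markers (cahz, hbb1, hba1 and hba4) had means of 10.57, 9.42 and 12.38 at these stages. Of adipocyte markers adipoqb, an adiponectin gene, was the 1 found under the symbols used. Its mean was 9.20 at stage I, 8.73 at stage V and 8.33 at stage VIII, and it did not pass the F-test across the 9 groups (adjusted p = 0.0785), which 44.2% of all clones passed.

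The profiles most like those of the lipases were ranked among 488 clones with 1 gene name other than a bare locus number, by Pearson r over the 9 group means. For the first lipe1 clone these were ub2r1, a ubiquitin-conjugating enzyme (r = 0.92), arl2, a small GTPase of tubulin folding (0.91), the proteasome subunit psmd8 (0.91), vapa, a protein of the endoplasmic reticulum that tethers lipid transfer proteins (0.90), gh1, growth hormone (0.90) and rtst6galnac, a sialyltransferase (0.90). The second lipe1 clone had gh1 (0.98), arl2 (0.95), ub2r1 (0.94), cetn4, a centrin of centrioles and cilia (0.93), dctn3, a dynactin subunit (0.92), and nudt3, a phosphohydrolase (0.92). The nearest to lipea were fd6d, the delta-6 fatty acid desaturase (0.90), gh1 (0.89), spata4, a gene of spermatogenesis (0.87), ub2r1 (0.86), fih1, the hydroxylase that inhibits hypoxia-inducible factor (0.86) and arl2 (0.86). Among the 6 nearest of each clone gh1, ub2r1 and arl2 came up for all 3.

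An r of at least 0.9 was reached by 123 of 9023 other clones for the first lipe1 clone (1.36%), 247 for the second (2.74%) and 59 for lipea (0.65%). The gh1 clone had group means of only 7.02 to 7.53, all under the array median, and with signals under the median raised to it the r with the lipe1 clones was 0.32 and 0.53. In that setting fd6d had an r of 0.88 with lipea. The group means of both clones were above the array median only at stage V and in spermatids. This r therefore rests largely on those groups. The means of fd6d were 7.55 ± 0.21 (SD, n = 5) at stage I, 8.29 ± 0.17 (n = 4) at stage V, 7.70 ± 0.28 (n = 3) at stage VIII, 8.02 ± 0.47 (n = 6) in spermatocytes and 8.23 ± 0.35 (n = 3) in spermatids. The vapa clone, at 9.37 ± 0.24 (n = 5) at stage I and 10.09 ± 0.20 (n = 4) at stage V, had an r of 0.79 with the first lipe1 clone over the 38 arrays, where ub2r1 had 0.68, psmd8 0.47, arl2 0.46 and gh1 0.38. With the second lipe1 clone ub2r1 had 0.788, nudt3 0.77, cetn4 0.766, arl2 0.583, gh1 0.544 and dctn3 0.445 over the arrays. With lipea spata4 had 0.795, fih1 0.726, arl2 0.672, fd6d 0.665, gh1 0.647 and ub2r1 0.622, so fd6d was not the nearest by this measure.

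Genes with which a lipase would work were examined next. Lists of lipolysis and lipid droplets, fatty acid synthesis and adipocytes, cholesterol uptake and storage, steroid synthesis and cAMP signalling held 13 measured clones besides the lipases. The fuller annotation made by the study was not used here, so other clones of these genes may stand among the unnamed ones. Lists of triglyceride synthesis and fatty acid oxidation had no clone under the symbols used, and neither the adipose triglyceride lipase nor the perilipins that cover lipid droplets were found under theirs. Between stage I and stage V 0 of the 13 rose and 5 fell, against 15.2% and 15.7% of all clones, and their median difference was -0.61 (all clones -0.04). All 13 differences were negative there, where those of the lipases were positive. Of the 13 clones 9 passed the F-test, and fabp7b, adipoqb, apoc2 and tspo did not.

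The 5 that fell were steroid genes, all of them also in the Leydig cell list of 8 clones. The mean of the Sertoli cell markers was lower at stage V as well (-1.14), and so was that of the peritubular and matrix markers, at 11.72 in stage I and 10.63 in stage V. The clone of star, the protein that carries cholesterol into mitochondria, fell by 1.67 (SE 0.30, limma adjusted p = 3.67e-05) from 9.54 ± 0.28 (n = 5) to 7.86 ± 0.18 (n = 4). For cyp17a1, which makes androgen precursors, the fall was 1.82 (adjusted p = 9.67e-08), for hsd3b1 1.49 (5.26e-07), for cyp11b, of 11-oxygenated androgen synthesis, 1.42 (2.44e-05) and for hsd11b2, which acts in the same pathway, 1.68 (6.2e-08). The fatty acid binding protein fabp3 had a difference of -0.35 (adjusted p = 0.345), the sterol carrier npc2 of lysosomes -0.17 (0.478), the transcription factor cebpb -0.76 (0.089) and the luteinising hormone receptor lhcgr, which signals through cAMP, -0.03 (0.928).

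At stage VIII, when the lipase means were lower than at stage V, 9 of the 13 rose and 0 fell, against 18.1% and 19.3% of all clones, with a median of 1.25 (all clones -0.04). Of the 9, star, cyp17a1, hsd11b2, lhcgr, hsd3b1 and cyp11b were also in the Leydig cell list, in which 8 of 8 clones rose. So did 4 of 4 red blood cell, 3 of 4 peritubular and matrix and 2 of 3 Sertoli cell clones. The 6 meiotic and spermatid clones all fell. Rises were called for star, by 3.74 (SE 0.34, adjusted p = 8.14e-11), cyp17a1, by 3.02 (1.87e-11), and hsd11b2, by 2.55 (8.12e-11). Of these star was above the array median on 0 and hsd11b2 on 1 of the 4 stage V arrays, so their rises are against a background level. Rises of 1.76 for lhcgr (4.39e-08), 1.51 for hsd3b1 (2.32e-06), 1.48 for cyp11b (6.53e-05), 1.25 for fabp3 (0.00113), 1.14 for cebpb (0.0196) and 0.90 for npc2 (0.000221) were also called. The stage V means of lhcgr and cyp11b lay under the array median too, so the same limit holds for their rises. The call of cebpb was lost without stage VIII replicate 2 (adjusted p = 0.0547) or replicate 3 (0.137) and with signals under the median raised to it (0.551). Both comparisons share the stage V arrays, so a low stage V enters each of them.

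**Figure D5:**
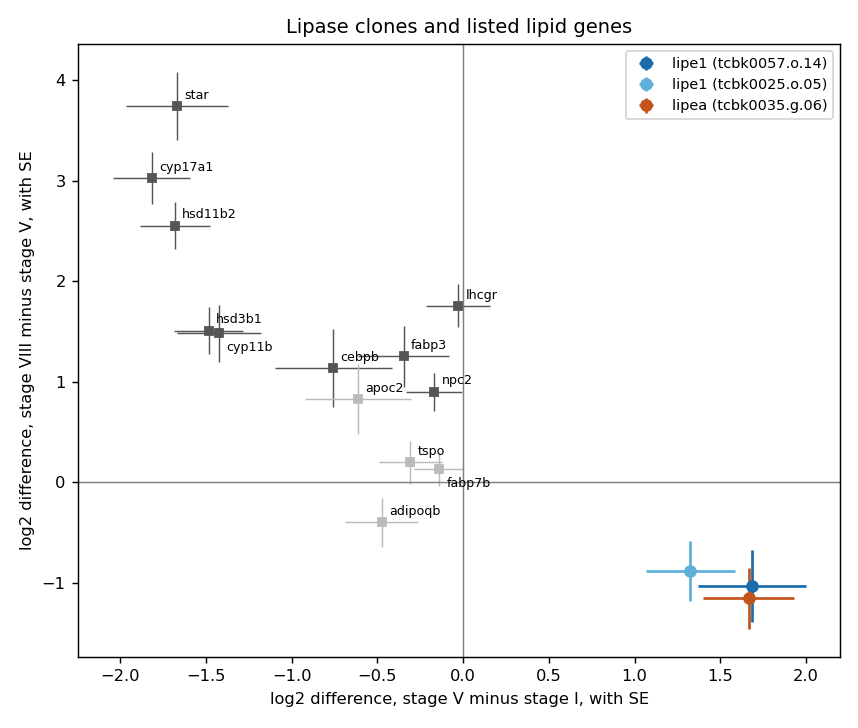
Log2 difference from stage I to stage V (horizontal axis) against that from stage V to stage VIII (vertical axis), each with its SE, for the 3 lipase clones (circles) and the 13 listed lipid clones (squares; grey ones did not pass the F-test). The lipases lie at the lower right, at 1.33 to 1.68 and -1.15 to -0.88, and the steroid genes at the upper left.

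Against stage I 6 of the 13 rose at stage VIII and 1 fell, beside 11.3% and 12.9% of all clones (median 0.38, all clones -0.04). Those that rose were star (2.07, adjusted p = 1.08e-05), lhcgr (1.73, 8.04e-08), cyp17a1 (1.21, 0.000347), fabp3 (0.91, 0.0192), hsd11b2 (0.87, 0.00334) and npc2 (0.73, 0.00251), and adipoqb fell by 0.87 (0.00511). The stage I mean of lhcgr lay under the array median, so its rise is against a background level. In the Leydig cell list, which also holds star, lhcgr, cyp17a1 and hsd11b2, 5 of 8 clones rose. The call of fabp3 was lost without stage VIII replicate 2 (0.0907). From stage IIb to IIIb 0 rose and 4 fell, beside 3.92% and 3.11% of all clones (median -0.48, all clones -0.01): hsd3b1 (-1.18, adjusted p = 0.00135), cyp17a1 (-1.13, 0.00527), star (-1.10, 0.0409) and hsd11b2 (-0.79, 0.0295). All 4 were also in the Leydig cell list, in which 4 of 8 clones fell. The call of star was lost without any 1 array of either stage (0.0501 to 0.155) and with signals under the median raised to it (0.0627), that of hsd11b2 in 6 of 7 such cases and that of cyp17a1 without stage IIIb replicate 2 (0.0504). Between stages IIIb and V none of the 13 was called, as for all clones (0%).

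In isolated spermatogonia 0 rose and 6 fell relative to stage I, beside 13.4% and 13.2% of all clones (median -0.47, all clones 0.03). They included fabp3, by 2.03 (SE 0.24, adjusted p = 3.1e-08), hsd11b2, by 1.91 (3.87e-10), cyp17a1, by 1.85 (6.99e-09), hsd3b1, by 0.99 (7.28e-05), cyp11b, by 0.78 (0.00756) and npc2, by 0.47 (0.0166). The call of npc2 was lost without stage I replicate 1 (0.0571) or 4 (0.0649). Of the 6, hsd11b2, cyp17a1, hsd3b1 and cyp11b were also in the Leydig cell list, in which 6 of 8 clones fell. So did 3 of 3 Sertoli cell, 4 of 4 peritubular and matrix and 1 of 4 red blood cell clones, and 0 of 6 meiotic and spermatid clones. For the lipases the same comparison gave 0.86, 0.37 and 0.06. From spermatogonia to spermatocytes 0 rose and 3 fell, beside 12% and 14.9% (median -0.05, all clones 0.01), namely cebpb (-1.03, 0.00756), fabp3 (-0.90, 0.00289) and cyp11b (-0.60, 0.0342). The call of cyp11b was lost in 7 of 12 cases in which 1 array was left out, with only both groups in the fit (0.108) and with low signals raised to the median (0.98), and that of cebpb in the last setting (0.0577). Between spermatocytes and spermatids none was called.

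A further 9 clones of 7 lipid genes stood under other symbols and were chosen by name after the array description was read. Between stages I and V both clones of fabph, a heart-type fatty acid binding protein, fell by 0.95 (adjusted p = 1.06e-05) and 1.38 (5.75e-05), apoa-i-1 by 0.93 (0.0334) and apoa-i-2 by 0.66 (0.0145), both genes of apolipoprotein A-I of high-density lipoprotein. The acyl-CoA binding protein acbp had a difference of -0.37 (0.151) there and rose by 1.43 from stage V to stage VIII (3.54e-06). Clones of nr1h3, the oxysterol receptor, had -0.35 (0.0675) and -0.42 (0.079) between stages I and V. Of the 9 clones 0 rose and 4 fell between stages I and V and 4 rose and 0 fell between stages V and VIII, against the shares of all clones given above for these comparisons. The list did not hold fd6d, the fatty acid desaturase named above for its likeness to lipea over these same group means. Its means were 7.55 at stage I, 8.29 at stage V and 7.70 at stage VIII. That they go in the direction of the lipases follows from this choice and is no separate finding. Of these means only that of stage V was above the array median. In spermatogonia 0 of the 9 clones rose and 7 fell relative to stage I, beside 13.4% and 13.2% of all clones. From spermatogonia to spermatocytes 2 rose and 0 fell, beside 12% and 14.9%. These 2 were the phospholipase pla2g12a, by 0.64 (adjusted p = 0.00896), and apoa-i-2, by 0.48 (0.0435).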

How the data were processed

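RNA of 38 trout testis samples was hybridised to nylon cDNA arrays, 1 array per sample. To correct for the cDNA spotted, the authors scaled every spot by its own vector hybridisation relative to the median of that spot over the arrays. The deposited values are log2 signals, quantile normalized. Of 9216 entries 192 were empty, and 9024 clones were kept, 190 of them without a value on some array and fitted on the remaining ones. The lipase clones lacked no value, and 0 columns of values had no sample. The authors' filter on low vector signal was not applied. A renewed quantile normalization moved no value by more than 0.0134.

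Gene symbols came from the array description, with 677 clones having 1 symbol, 1 several and 8346 none here, and the fuller annotation made by the study was not used. For the cell type marker lists alone, single clones that the paper identifies by name also took the gene names given there. Groups followed the sample labels. Means of the 9 groups were estimated in R 4.3.3 using limma 3.58.1 (prior df 7.3, residual df 29). Calls between groups used a Benjamini-Hochberg adjusted p under 0.05 over all clones, and the F-test across groups 0.005, where the study used a permutation test. Counts of clones whose groups do not overlap used the lowest and highest arrays. The scripts were first tested on simulated data with known changes. The lipase clones, the lists and the comparisons were chosen with earlier results of these data known. Named genes were all lipase clones, the 6 named clones nearest to each, and all listed lipid clones, in full where they passed the F-test.

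Alternatives were a renewed normalization, a floor at the array median, array weights, the replicate number as a block, group medians, a filter on low clones, an intensity trend, fits of only both groups compared, other measures of likeness, and leaving out each array. Array numbers limit the precision.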

Additional observations from a re-analysis of the deposited data

Results flagged for a closer look

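In 72 groups of 4 to 6 arrays, of the lipase clones and of the listed lipid genes that passed the F-test, 4 single arrays lay far from the rest of their group, and chance alone marks about 1 in 20 groups. None of the 4 was a lipase signal. Stages IIIb and VIII and the spermatids, with 3 arrays each, were too small for this rule and were not looked at. The fatty acid binding protein fabp3 had a log2 signal of 10.44 in spermatogonia replicate 1, where the other 5 arrays had 9.51 to 9.84. For cyp17a1 stage IIb replicate 1 had 9.54, against 10.11 to 10.22 on the other 3 arrays, and for cyp11b stage I replicate 1 had 8.29, against 8.88 to 9.07 on the other 4. The receptor lhcgr had 8.85 in spermatocyte replicate 6, the array with the highest signals of both lipe1 clones, against 7.51 to 7.91 on the other 5.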

How the results depend on the processing

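The largest effect on the lipase clones came from raising signals under the array median to it. From stage I to stage V the difference was then 0.81 for the first lipe1 clone (tcbk0057.o.14) and 0.395 for lipea, which also gave 0.395 from stage IIIb to V, -0.395 from V to VIII, 0.36 between spermatids and spermatocytes, and 0 both for stage VIII against I and for spermatocytes against spermatogonia. From stage IIb to IIIb the lipe1 clones then had 0.089 and 0.24, and spermatogonia against stage I gave 0.11 for the first. For lipea only comparisons with stage V or spermatids kept a value other than 0, the arrays above the median all being of those groups. No other setting moved a lipase difference by 1 SD or more. For leaving out 1 array this says little, since the SD includes that array and the limit can then hardly be reached. Without stage VIII replicate 1, for example, the first lipe1 clone had 0.204 in place of 0.655 for stage VIII against I.

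Without 1 array at a time the differences from stage I to V ranged from 1.53 to 1.82, 1.18 to 1.45 and 1.54 to 1.77 (first lipe1 clone, second, lipea), from V to VIII from -1.48 to -0.70, -1.13 to -0.74 and -1.51 to -0.85, and from IIIb to V from 0.71 to 1.05, 0.71 to 0.96 and 0.89 to 1.25. Over all clones, calls between stages IIb and IIIb (635) ranged from 227 to 534, with 313, 227 and 349 without stage IIIb replicates 1, 2 and 3. Those between spermatids and spermatocytes (6) ranged from 3 to 289, with 289 without spermatid replicate 2, 30 without spermatid replicate 1, 10 without spermatocyte replicate 1 and 3 without spermatocyte replicate 4.

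Array weights gave 4634 calls for stage V against I (2784 without weights), 3292 for VIII against I (2189), 1972 for IIIb against IIb, 540 for V against IIIb (0), 3885 for spermatogonia against stage I (2402) and 0 for spermatids against spermatocytes. Raised low signals gave 16 calls for V against IIIb, 1606 for spermatocytes against spermatogonia (2428) and 47 for spermatids against spermatocytes, and fits of only both groups gave 153 for V against IIIb and 0 for spermatids against spermatocytes. The causes were not tested.

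Over all groups, deviations of arrays with the same replicate number correlated at a mean of -0.002 (127 pairs, -0.397 to 0.557). Those with other numbers correlated at a mean of 0.001 (509 pairs, -0.537 to 0.448). A mean over all groups cannot show whether some arrays were paired, such as germ cell fractions of the same isolation. With the replicate block the calls between spermatids and spermatocytes were 2, those of stage V against I were 2664, and the lipase differences there were 1.72, 1.36 and 1.69. The labels do not say that a shared number stands for a shared animal or isolation.

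Likeness of lipea to the lipe1 clones was also taken, after seeing the data, over deviations from group means (0.285 and 0.462) and over the 6 whole-testis means (0.977 and 0.995). Of those 6 groups only stage V had lipea arrays above the array median, and the deviations of lipea come mostly from signals under it. Of the other results for single genes 2337 kept their side of the threshold or, without a test, moved by less than the spread, 29 gained a call, 31 lost one, 25 moved and 0 reversed.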
